A study of Mus musculus with 6 samples.

Results

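The drug-metabolizing cytochrome P450 genes of the Cyp1a, Cyp2a, Cyp2d, Cyp2e and Cyp2f groups in mouse liver were followed through 10 members chosen by gene symbol: Cyp1a2, Cyp2a5, Cyp2a12, Cyp2a22, Cyp2d9, Cyp2d10, Cyp2d22, Cyp2d26, Cyp2e1 and Cyp2f2. All 10 of these symbols were found among the 20107 genes of the count table. The libraries came from livers of 6 wild-type male C57BL/6N mice (Envigo) aged 16 weeks, littermates per the series' description, with 3 mice on each diet. The HFHC mice (replicates 1, 2 and 3) ate a high-fat, high-calorie fructose food and drank high-fructose fluid from 8 weeks of age for 8 weeks, and the Chow mice (replicates 7, 8 and 9) ate chow. All were of 1 sex, 1 strain and 1 age, and the make-up of either diet beyond these words is not given in the sources used here.

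Cytochrome P450s are heme enzymes of the endoplasmic reticulum that oxidize drugs, dietary compounds and endogenous lipids with electrons passed on by the reductase Por. Cyp1a2 is a target of the aryl hydrocarbon receptor and clears caffeine. Cyp2a5 oxidizes coumarin and nicotine, Cyp2e1 oxidizes ethanol and paracetamol, and Cyp2f2 acts on naphthalene. The Cyp2d genes are the mouse counterparts of the human enzyme that handles many basic drugs. Cyp1a2 and Cyp2e1 are known from the hepatocytes around the central vein, and Cyp2f2 from those around the portal vein.

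The table's values were expected counts per gene, with 30096409 to 30871297 counts per HFHC library and 26767416 to 27339613 per Chow library. Levels below are CPM, counts brought to a common library size after scaling by TMM (a method that balances the libraries on most of their genes). Mean ± SD has n = 3 mice per diet. A positive log2 fold change means higher in HFHC and is given ± its SE, and adjusted p values come from a quasi-likelihood test in edgeR, adjusted by Benjamini-Hochberg over the 14896 genes tested. A gene passed at an adjusted p under 0.05. Of the 10 hepatocyte marker genes listed 9 were in the table, and their summed level, most of it albumin (Alb), was 88135 to 91147 CPM in HFHC and 82552 to 102296 CPM in Chow. Of these 9, 4 were lower and 2 higher in each HFHC liver (14.3% and 13.5% of all tested genes were). By the test 2 of the 9 fell, the urea cycle gene Cps1 (-0.75 ± 0.12, adjusted p = 0.00837) and the apolipoprotein Apob (-0.43 ± 0.11, adjusted p = 0.0453). Their part in the values of the P450 genes was not tested.

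Of the 9 genes with a RefSeq promoter (GRCm38.p6; Cyp2d22 is not in that table) 8 held the TATA box letters TATAAA, on either strand, within 250 bases before the start, where 12.4% of 32851 RefSeq promoters did. The promoters of 5 genes are shown because they belong to the gene that passed the test and to 2 pairs of near copies that were read at unequal levels. Each is the 250 bases before the RefSeq start, which can differ from the gene start given below (in Cyp2d9 it lies inside the gene's span), 5′ to 3′ on the gene's strand, and capitals mark the TATA box letters (TTTATA where they lie on the other strand).
Cyp1a2 (chr9:57683656-57683905, minus strand): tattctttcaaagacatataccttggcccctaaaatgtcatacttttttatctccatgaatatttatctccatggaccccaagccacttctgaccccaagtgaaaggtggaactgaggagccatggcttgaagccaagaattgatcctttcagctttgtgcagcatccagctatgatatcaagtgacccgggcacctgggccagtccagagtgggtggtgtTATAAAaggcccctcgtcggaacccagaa
Cyp2a12 (chr7:27028840-27029089, plus strand): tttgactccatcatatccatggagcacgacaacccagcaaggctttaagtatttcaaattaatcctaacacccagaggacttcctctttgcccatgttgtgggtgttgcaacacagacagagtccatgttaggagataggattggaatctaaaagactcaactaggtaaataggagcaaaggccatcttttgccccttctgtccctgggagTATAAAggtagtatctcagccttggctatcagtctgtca
Cyp2a22 (chr7:26939387-26939636, minus strand): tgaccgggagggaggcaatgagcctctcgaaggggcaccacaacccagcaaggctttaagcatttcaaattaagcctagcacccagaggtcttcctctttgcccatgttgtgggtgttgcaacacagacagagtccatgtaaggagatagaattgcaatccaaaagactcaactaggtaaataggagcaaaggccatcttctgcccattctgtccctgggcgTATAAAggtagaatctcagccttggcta
Cyp2d9 (chr15:82452127-82452376, plus strand): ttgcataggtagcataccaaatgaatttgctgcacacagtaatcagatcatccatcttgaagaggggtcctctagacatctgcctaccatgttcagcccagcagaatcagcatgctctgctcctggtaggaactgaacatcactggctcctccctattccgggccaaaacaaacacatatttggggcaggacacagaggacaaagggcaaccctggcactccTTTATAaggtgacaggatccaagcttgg
Cyp2d10 (chr15:82407195-82407444, minus strand): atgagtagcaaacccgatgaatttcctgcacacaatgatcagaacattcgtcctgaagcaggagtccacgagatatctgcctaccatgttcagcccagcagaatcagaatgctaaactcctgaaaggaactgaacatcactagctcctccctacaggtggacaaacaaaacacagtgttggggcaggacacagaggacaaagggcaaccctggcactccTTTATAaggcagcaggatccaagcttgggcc
In a global alignment 216 of 250 bases (86.4%) were identical between the Cyp2a12 and Cyp2a22 promoters, and 209 (83.6%) between those of Cyp2d9 and Cyp2d10. Every other pair of the 9 shared 56.8% or fewer. The core of the xenobiotic response element, GCGTG, which the aryl hydrocarbon receptor binds, was in none of the 9 windows on either strand and in 28.2% of all promoters of this length. No match says only that the letters were not in these 250 bases. The PAR bZIP letters TTATGTAA were in none of the 9 either (0.819% of all promoters). Only this exact spelling was searched, so a site with a differing letter would be missed.

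On the HFHC diet 1 of the 10 genes fell, Cyp1a2, and none rose. By the same test 6.67% of all tested genes passed, 3.38% higher and 3.30% lower in HFHC. At an unadjusted p under 0.05 there were 5 of the 10, namely Cyp1a2, Cyp2a5, Cyp2f2, Cyp2a22 and Cyp2d26. Over all genes 3314 of the 14896 tested were under 0.05 as well. DESeq2 called Cyp1a2 and Cyp2f2 lower and Cyp2a22 higher, and over all genes it called 660 lower and 599 higher. The libraries of the diets did not overlap for 5 of the 10, against 27.8% of all tested genes: Cyp1a2, Cyp2a5, Cyp2a12 and Cyp2f2 were lower in each HFHC liver (14.3% of all tested genes were) and Cyp2d26 was higher (13.5%). The median log2 fold change of the 10 was -0.03, and that of all tested genes was -0.0033.

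**Figure D1:**
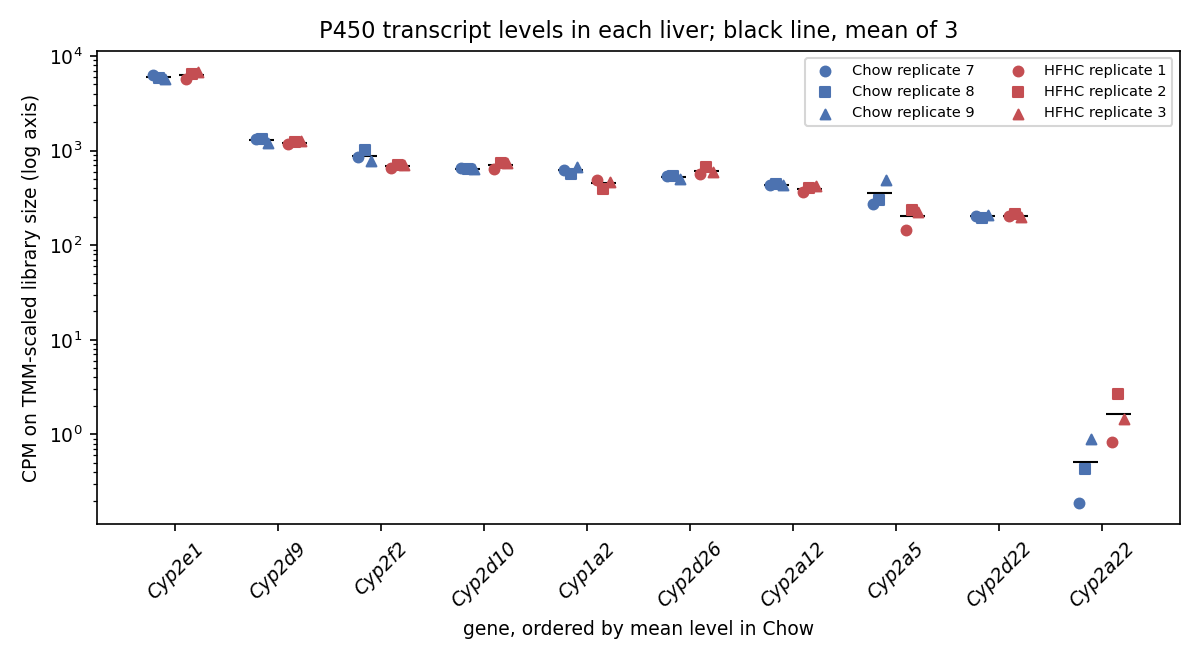
CPM of each of the 10 genes (log axis) in each liver, ordered by mean level in Chow, with blue points for Chow, red points for HFHC and black lines for the mean of 3. Cyp2e1 lies above all others in every liver and Cyp2a22 lies below all others, with means of 0.51 CPM in Chow and 1.65 CPM in HFHC.

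Cyp1a2 (chromosome 9, 57676937 to 57683703 in mm10, minus strand, 7 exons) stood at 624, 562 and 665 CPM in Chow replicates 7, 8 and 9. In HFHC replicates 1, 2 and 3 it stood at 491, 391 and 471 CPM. Every HFHC liver lay below every Chow liver, and HFHC replicate 2 was the lowest. The gene fell from 617 ± 51.6 to 451 ± 53.1 CPM, a log2 fold change of -0.45 ± 0.11 (SE; adjusted p = 0.0390; 95% interval -0.69 to -0.21). In bulk liver, fewer cells of a type and less RNA per cell cannot be told apart. The call was lost in 5 of the 6 fits without 1 library, with adjusted p values of 0.0602 (without HFHC replicate 1), 0.101 (HFHC replicate 2), 0.0705 (HFHC replicate 3), 0.129 (Chow replicate 7) and 0.130 (Chow replicate 9), and it held without Chow replicate 8 (0.0291). In each of the 6 fits the log2 fold change was negative, from -0.51 to -0.36.

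Cyp1a1, the neighbouring gene of the same receptor battery, was scarce at 1.16 ± 0.245 CPM in Chow and 0.777 ± 0.104 CPM in HFHC, lower in each HFHC liver, and did not pass (-0.57 ± 0.26, adjusted p = 0.230). It shares 3.38% of the 75-base windows of the Cyp1a2 transcript, and with Cyp1a1 added the Cyp1a2 sum was 618 ± 51.8 CPM in Chow and 452 ± 53.0 CPM in HFHC. None of the 8 tested genes of the aryl hydrocarbon receptor list passed in edgeR's test, and 1 had an unadjusted p under 0.05. Ahr, the receptor itself, ranged widely in both diets (66.0 ± 25.4 CPM in Chow, 51.3 ± 16.7 CPM in HFHC, adjusted p = 0.508).

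The 3 Cyp2a genes lie on chromosome 7 with Cyp2f2, and none of them passed. Cyp2a5 and Cyp2a12 were lower in each HFHC liver, and the livers overlapped for Cyp2a22. Cyp2a5 (26835305 to 26843548, plus strand) stood at 275, 303 and 486 CPM in Chow replicates 7, 8 and 9. It stood at 146, 233 and 227 CPM in HFHC replicates 1, 2 and 3. All HFHC livers were below all Chow livers, and the spread within each diet was wide, with a coefficient of variation of 32.3% in Chow and 24.2% in HFHC. The log2 fold change of -0.81 ± 0.23 did not pass (adjusted p = 0.0687; 95% interval -1.33 to -0.29). It ran from -0.97 without Chow replicate 7 to -0.52 without Chow replicate 9, and limma-voom with sample weights called it lower (adjusted p = 0.0374). Cyp2a4, the near copy known as a female-type steroid hydroxylase, shares 18.0% of the windows of Cyp2a5 and had 0.041 to 0.444 CPM per liver, so the sum of both genes moved as Cyp2a5 alone (355 ± 115 CPM in Chow, 202 ± 48.9 CPM in HFHC). In all 25.5% of the windows of Cyp2a5 occur in another gene. A pseudogene holds 11.4% of them, and the sum does not take it in.

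Cyp2a12 (27029081 to 27037375, plus strand), which hydroxylates steroids and bile acids, was steadier. It stood at 429.8, 438 and 434 CPM in the Chow livers and at 365, 402 and 422 CPM in the HFHC livers. The Chow livers lay within 1% of their mean (coefficient of variation 0.987%) and above each HFHC liver. The log2 fold change of -0.13 ± 0.08 did not pass (adjusted p = 0.395; 95% interval -0.32 to 0.05).

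Cyp2a22 (26931631 to 26939384, minus strand), a little-studied relative, was the only one of the 10 that was scarce. It had 5.11, 12.3 and 23.6 expected counts in Chow replicates 7, 8 and 9, or 0.190, 0.435 and 0.905 CPM. In HFHC replicates 1, 2 and 3 it had 25.9, 84.4 and 43.1 expected counts, or 0.827, 2.69 and 1.44 CPM. HFHC replicate 1 lay below Chow replicate 9, so the diets overlapped. The log2 fold change of 1.69 ± 0.54 did not pass in edgeR's test (adjusted p = 0.10; 95% interval 0.47 to 2.90) and did in DESeq2 (1.70, adjusted p = 0.0141). It was 1.15 without HFHC replicate 2 and 2.38 without Chow replicate 9. Of its 75-base windows 13.4% occur in Cyp2a12, whose counts are far higher, so its level is uncertain. Per 100 counts of Cyp2a12 it had 0.0451, 0.102 and 0.205 in Chow and 0.226, 0.673 and 0.343 in HFHC, a ratio that was higher in each HFHC liver (exact permutation p = 0.1, two-sided, the smallest that 3 against 3 allows; adjusted p = 0.156 by Benjamini-Hochberg over 14 ratios, so it did not pass).

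None of the 4 Cyp2d genes passed, and their HFHC means were 0.95 to 1.16 times their Chow means. Cyp2d9 (chromosome 15, 82433437 to 82456845, plus strand), a testosterone hydroxylase known to be higher in males, stood at 1311, 1319.6 and 1205 CPM in Chow and 1163, 1229 and 1251 CPM in HFHC. These overlapped, with a log2 fold change of -0.07 ± 0.08 (adjusted p = 0.656; 95% interval -0.26 to 0.11). Cyp2d10 (82402846 to 82407195, minus strand) stood at 658, 639 and 638 CPM in Chow and 646, 736 and 731 CPM in HFHC. HFHC replicate 1 fell inside the Chow range, and the log2 fold change was 0.13 ± 0.08 (adjusted p = 0.428; 95% interval -0.06 to 0.31).

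Cyp2d22 (82370527 to 82380260, minus strand), the Cyp2d gene often set beside the human one, stood at 203, 193 and 209 CPM in Chow and 201, 212 and 198 CPM in HFHC, which overlapped throughout (0.02 ± 0.08, adjusted p = 0.931; 95% interval -0.15 to 0.18). Cyp2d26 (82790101 to 82794294, minus strand) stood at 533, 538 and 497 CPM in Chow and at 564, 664 and 598 CPM in HFHC. Each HFHC liver was above each Chow liver, and the log2 fold change of 0.22 ± 0.09 did not pass (adjusted p = 0.182; 95% interval 0.02 to 0.42). No upper bound among the 4 exceeded 0.42, which is below a 1.5-fold increase.

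The near copies Cyp2d9 and Cyp2d10 were also set against each other within each liver. Cyp2d9 had 199, 207 and 189 counts per 100 of Cyp2d10 in the Chow livers and 180.1, 167 and 171 in the HFHC livers. The ratio needs no scaling between libraries and was lower in each HFHC liver (exact permutation p = 0.1, adjusted p = 0.156 by Benjamini-Hochberg over the 14 ratios computed, so it did not pass). They share 90 of their 75-base windows with each other, and in all 16.7% of the windows of Cyp2d9 and 26.7% of those of Cyp2d10 occur in another gene, so reads could be split between them. Cyp2d11, a scarce gene in these livers, holds 17.5% of those of Cyp2d10. The 4 genes summed to 0.262% ± 0.0131 of the counts of a library in Chow and 0.276% ± 0.0140 in HFHC (exact permutation p = 0.4).

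Relatives of these genes were counted by the same test. Of 13 tested relatives from a list of 21, 3 rose and 1 fell. Cyp2d40 rose from 53.3 ± 5.72 to 82.3 ± 8.51 CPM (0.63 ± 0.11, adjusted p = 0.00999). Cyp2d12, which shares windows with Cyp2d9, rose by 1.41 ± 0.35 from 0.300 ± 0.105 CPM (adjusted p = 0.0465), and the sequence it shares leaves its level uncertain. Cyp2u1, a fatty acid hydroxylase, rose by 0.42 ± 0.08 (adjusted p = 0.0155). Cyp2g1, known from the nose and a neighbour of Cyp2a5 on chromosome 7, fell from 1.66 ± 0.619 to 0.336 ± 0.0422 CPM (-2.29 ± 0.36, adjusted p = 0.00712). Cyp2d12 in Chow (0.218 to 0.417 CPM) and Cyp2g1 in HFHC (0.288 to 0.369 CPM) were near the filter on low counts. Each could be tested through the livers of the other diet, so these calls are named and not counted as support.

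**Figure D2:**
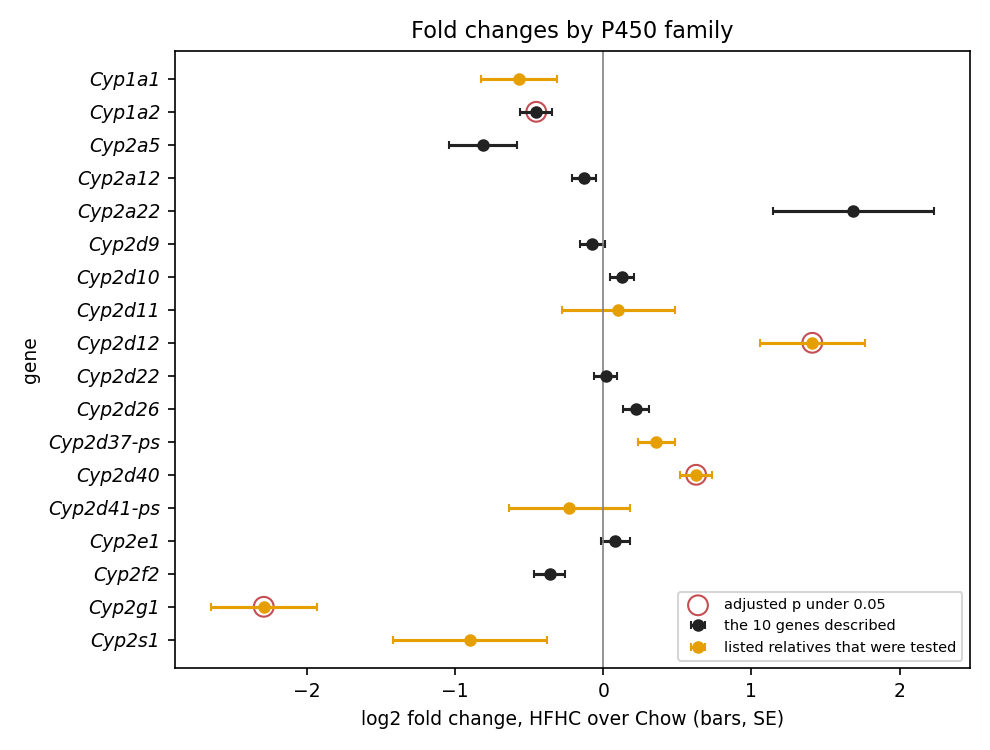
Log2 fold change (HFHC over Chow, bars show SE) of the 10 genes in black and of tested Cyp1a, Cyp2d, Cyp2g and Cyp2s relatives in orange. Red rings mark an adjusted p under 0.05. Cyp1a2 is the only ringed black point, and Cyp2d12, Cyp2d40 and Cyp2g1 are the ringed orange points.

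Cyp2e1 (chromosome 7, 140763739 to 140774987, plus strand) was the 18th most abundant of the tested genes by mean CPM. It stood at 6338, 5857 and 5668 CPM in Chow replicates 7, 8 and 9. In HFHC replicates 1, 2 and 3 it stood at 5682, 6507 and 6720.4 CPM. The diets overlapped, since HFHC replicate 1 lay inside the Chow range. The log2 fold change was 0.08 ± 0.10 and did not pass (adjusted p = 0.690). Its 95% interval ran from -0.14 to 0.31. Cyp2e1 took 0.589% ± 0.0373 of the counts in Chow and 0.636% ± 0.0499 in HFHC (exact permutation p = 0.3).

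Set against Cyp2e1 within each liver, which needs no scaling between libraries, 5 of the other 9 genes were lower in each HFHC liver. The share of all tested genes that would be lower against Cyp2e1 was not counted. Cyp2e1 itself had a somewhat higher mean in HFHC, which lowers every such ratio. Cyp1a2 had 9.85, 9.6 and 11.7 counts per 100 of Cyp2e1 in Chow and 8.64, 6.01 and 7.01 in HFHC. Cyp2a5 had 4.33, 5.17 and 8.57 in Chow and 2.56, 3.58 and 3.38 in HFHC. Neither pair of ranges overlapped, and the same was so for Cyp2a12, Cyp2d9 and Cyp2f2. Each had an exact permutation p of 0.1, the smallest possible here, and an adjusted p of 0.156 over the 14 ratios. The ratios for Cyp2a22, Cyp2d10, Cyp2d22 and Cyp2d26 overlapped. These ratios share 1 denominator and none of them passed, and a ratio does not tell which gene moved.

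Cyp2f2 (chromosome 7, 27119909 to 27133660, plus strand) stood at 846, 1010.5 and 781 CPM in Chow replicates 7, 8 and 9. In HFHC replicates 1, 2 and 3 it stood at 654, 698 and 699 CPM. The HFHC livers were all lower and close together (coefficient of variation 3.74%), whereas those on Chow varied more (13.5%). The log2 fold change of -0.36 ± 0.11 did not pass in edgeR's test (adjusted p = 0.0732; 95% interval -0.60 to -0.13) and did in DESeq2 (-0.36, adjusted p = 0.0201) and after GC content and length were adjusted for (-0.45, adjusted p = 0.0381). It was -0.24 without Chow replicate 8. An antisense gene, Gm15883, covers 13.5% of its exonic bases, and whether the counting used strand is not given.

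**Figure D3:**
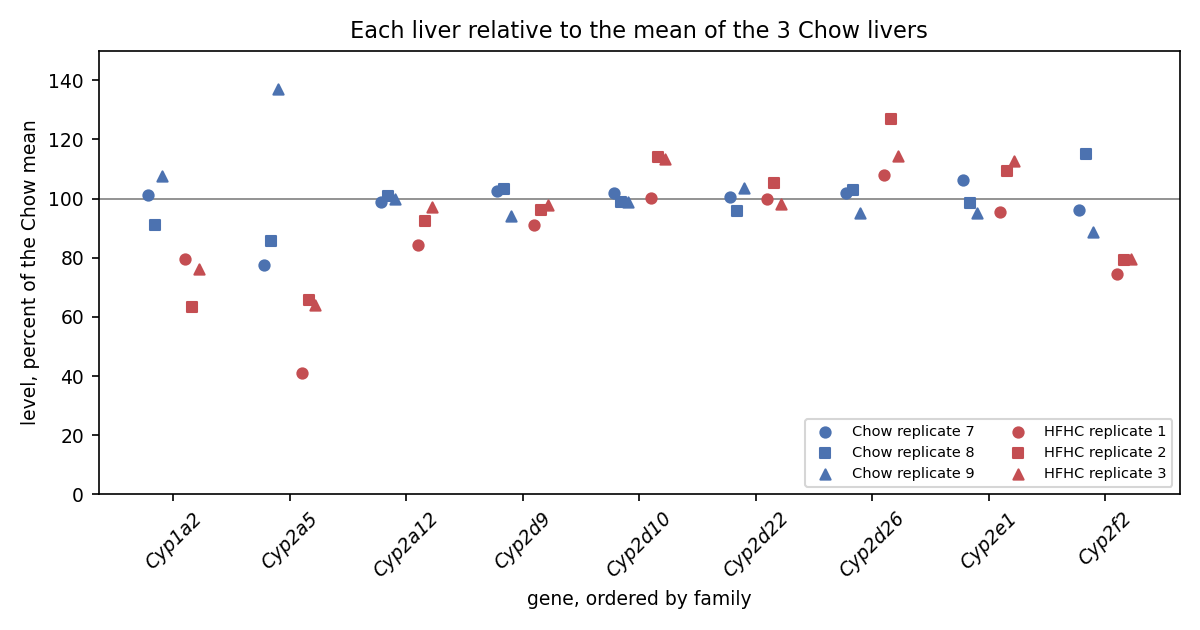
Level of 9 of the genes in each liver as a percent of the mean of the 3 Chow livers (Cyp2a22 left out for its low counts), with blue points for Chow and red points for HFHC. For Cyp1a2 the HFHC livers lie at 63.3 to 79.6% and for Cyp2f2 at 74.4 to 79.6%, while those for Cyp2d22 lie at 98.1 to 105%.

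Other genes of the zones these P450s are known from were counted by the same test. Of 23 periportal genes (Cyp2f2 not among them), 11 fell and 1 rose, with a median log2 fold change of -0.59 (all tested genes -0.0033, of which 3.30% fell). Hsd17b6, a steroid dehydrogenase, fell by 2.55 ± 0.18. Hal, which breaks down histidine, was at 506 ± 34.3 CPM in Chow and 242 ± 24.6 CPM in HFHC (adjusted p = 0.000460), and the lipid enzyme Etnppl fell by 1.48 ± 0.16. Apoa4, an apolipoprotein on that list, rose by 4.49 ± 0.19. Of 23 pericentral genes (Cyp1a2 and Cyp2e1 not among them) 1 rose and 1 fell, with a median of 0.11. The hepatokine Lect2 rose by 0.56 ± 0.10 (adjusted p = 0.0104) and the Wnt pathway receptor Lgr4 fell by 0.45 ± 0.08 (adjusted p = 0.0152). Whether the zones differ was not tested.

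Per kilobase of the principal GENCODE M21 transcript, which allows levels of different genes to be set side by side, the order in Chow began with Cyp2e1 at 3248 ± 189 CPM per kb and Cyp2d9 at 747 ± 37.3. Cyp2f2 followed at 471 ± 63.4, Cyp2d10 at 392 ± 6.98, Cyp1a2 at 318 ± 26.6 and Cyp2d26 at 308 ± 13.4 CPM per kb. Cyp2a12 came next at 258 ± 2.55, then Cyp2a5 at 176 ± 56.9, Cyp2d22 at 72.8 ± 2.83 and Cyp2a22 at 0.284 ± 0.202 CPM per kb. Of these neighbours only Cyp1a2 and Cyp2d26 had overlapping livers. In HFHC, Cyp2d10 (427 ± 30.7 CPM per kb) stood above Cyp2f2 (366 ± 13.7), and Cyp1a2 (232 ± 27.4) stood beside Cyp2a12 (236 ± 17.1) with overlapping livers, as Cyp2f2 did beside Cyp2d26 (358 ± 30.0). Over merged exons of all transcripts, Cyp2a12 (126 CPM per kb in Chow) came after Cyp2a5 (171), so the place of that pair depends on the transcript length used.

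Together the 10 genes took 1.08% ± 0.0438 of all counts in Chow and 1.09% ± 0.0674 in HFHC, with overlapping livers (exact permutation p = 0.7). Without Cyp2e1 the other 9 took 0.488% ± 0.0164 in Chow and 0.451% ± 0.0182 in HFHC, lower in each HFHC liver (exact permutation p = 0.1). The 3 Cyp2a genes summed to 789 ± 115 CPM in Chow and 599.7 ± 76.5 CPM in HFHC, also lower in each HFHC liver (p = 0.1 by the same exact test). By comparison, of 40 tested P450s from other subfamilies (Cyp2b and Cyp2c) and families 10 fell and 5 rose, with a median of -0.40. These counts take in genes scarce in 1 diet, such as Cyp2b9 (0.372 CPM in Chow, 3.34 CPM in HFHC). Such genes can pass the filter on low counts through the other diet. Cyp3a11 fell by 4.72 ± 0.32, Cyp2c29 by 1.89 ± 0.16 and Cyp2c55 by 3.30 ± 0.34, while Cyp51, a sterol demethylase, rose by 0.85 ± 0.10. The 10 genes' largest interval bound on the low side was -1.33, for Cyp2a5.

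Of 8 genes for electron donors and membrane partners of these enzymes, 2 rose and 1 fell (median -0.06). Por, the reductase, stood at 149 ± 24.6 CPM in Chow and 113 ± 25.3 CPM in HFHC and did not pass (-0.39 ± 0.17, adjusted p = 0.206). Cyb5r3, which reduces cytochrome b5, rose by 0.52 ± 0.10 (adjusted p = 0.0204) and the heme-binding Pgrmc2 by 0.64 ± 0.13 (adjusted p = 0.0228). Ephx1, the microsomal epoxide hydrolase, fell by 0.58 ± 0.13 (adjusted p = 0.0297).

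Of 8 heme synthesis genes 1 rose and none fell (median 0.17). Cpox, a late enzyme of the pathway, rose from 144 ± 17.1 to 193 ± 14.7 CPM (adjusted p = 0.0406). Alas1, the rate-limiting enzyme, had overlapping livers and an SD in Chow as large as its mean (236 ± 246 CPM in Chow, 352 ± 90.9 CPM in HFHC, adjusted p = 0.626). It stood at 70.3, 519 and 118 CPM in Chow replicates 7, 8 and 9. In HFHC replicates 1, 2 and 3 it stood at 314, 286 and 456 CPM. The overlap thus came from Chow replicate 8, which lay above every HFHC liver, while Chow replicates 7 and 9 lay below them. None of the 4 heme breakdown genes passed in edgeR's test, none had an unadjusted p under 0.05, and the smallest p was that of Hmox1 (0.25 ± 0.13, adjusted p = 0.300).

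Among 19 transcription factors known to act on hepatic P450 genes, 1 rose and 1 fell (median 0.19). Ppara, the fatty acid receptor, rose by 0.76 ± 0.17 (adjusted p = 0.0330) and Rora, a retinoid-related orphan receptor, fell by 0.50 ± 0.07 (adjusted p = 0.00584).

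Some clock genes differed between the diets, and Cyp2a5 is a known target of the PAR bZIP factors that the clock drives. Of 14 listed clock genes 1 rose and 2 fell. Dbp, a PAR bZIP factor, rose from 28.2 ± 14.8 to 67.8 ± 5.98 CPM (adjusted p = 0.0306), while Clock fell by 0.60 ± 0.08 and Cry1 by 0.49 ± 0.13. An index of clock phase (the average of Dbp, Per2 and Per3 in log2 CPM less the average of Clock, Npas2 and Arntl, centred over the 6 livers) was 0.46, 1.18 and 1.45 in HFHC replicates 1, 2 and 3. It was -2.07, 0.50 and -1.53 in Chow replicates 7, 8 and 9. Chow replicate 8 thus lay just within the HFHC range, and in it Cyp1a2, Cyp2a5 and Cyp2f2 were above every HFHC liver. This comparison does not tell clock phase from diet. It rests on 1 liver that did not match HFHC in every gene of the index. Its Dbp (45.2 CPM, against 62.3 to 74.2 CPM in HFHC) and its Clock (81.9 CPM, against 56.0 to 61.0 CPM) lay outside the HFHC range. Its Per2, Per3, Arntl and Npas2 lay inside that range.

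With the index as a covariate no member passed in edgeR's test, and over all genes 35 rose and 30 fell. The log2 fold change was then -0.28 ± 0.16 for Cyp1a2 (adjusted p = 0.609), -0.87 for Cyp2a5 (adjusted p = 0.498) and -0.60 for Cyp2f2 (adjusted p = 0.149). Among the other 5 livers the index and the diet cannot be told apart.

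**Figure D4:**
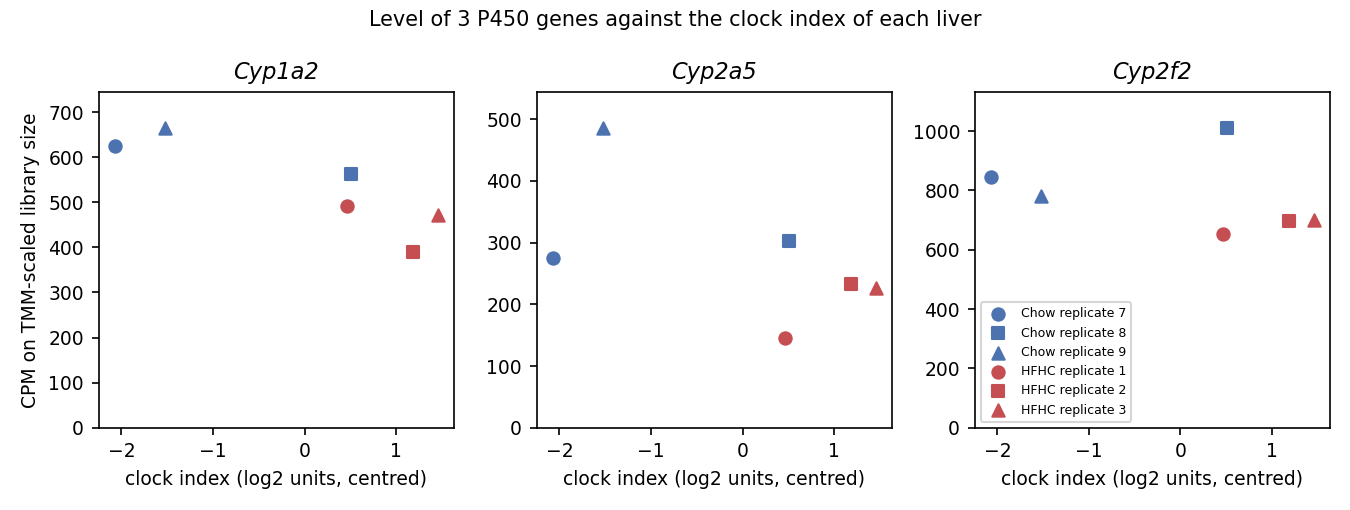
CPM of Cyp1a2, Cyp2a5 and Cyp2f2 (vertical axes from 0) against the clock index of each liver in centred log2 units, blue for Chow and red for HFHC. Chow replicate 8 (blue square, index 0.50) lies among the HFHC livers on the horizontal axis and above them on each vertical axis.

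Cyp2d9 and Cyp2a4 are known for a sex difference set by growth hormone. Of 19 male-biased genes listed beside Cyp2d9, 2 fell (the glutathione transferase Gstp1 at -1.93 ± 0.14 and the complement gene C6 at -0.49 ± 0.12) and Cyp2u1 rose, with a median of -0.35. Gstp1 has paralogs and a pseudogene in the table, and how far its reads are shared with them was not tested. Of 20 female-biased genes only 8 passed the filter on low counts, and Cyp2a4 was not among them. A gene can pass that filter through the livers of 1 diet alone, so these 8 are not counted as support. By the test 4 of the 8 rose, none fell and the rest did not pass. Those with the smallest p were Cyp17a1 (2.38 ± 0.28), Cyp2b9 (3.15 ± 0.45) and Abcd2 (1.56 ± 0.25), which rose. The listed genes that were not tested were at 0.444 CPM or less in every liver of both diets.

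Markers of cells other than hepatocytes did not pass in edgeR's test, apart from 1 of 5 erythroid and 1 of 7 cholangiocyte genes tested. Of the 13 Kupffer cell (liver macrophage) markers 6 were higher in each HFHC liver (13.5% of all tested genes were). The same number had an unadjusted p under 0.05, as did 3314 of the 14896 tested genes. The Kupffer cell markers summed to 422 to 515 CPM in HFHC and 358 to 429.9 CPM in Chow, and the 13 endothelial markers to 432 to 480.4 and 477 to 485 CPM. Stellate cell markers (13) summed to 369 to 419 CPM in HFHC and 363 to 416 CPM in Chow, cholangiocyte markers (8) to 48.1 to 54.5 and 49.8 to 55.5 CPM, and erythroid markers (5) to 272 to 321 and 255 to 279 CPM. Lymphocyte and neutrophil markers each summed to under 4 CPM in every liver, and no marker in the table was at 0 in all 6. Their part in the values of the P450 genes was not tested.

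As a description over the 6 livers, each gene was compared with 62 other tested P450 genes by Pearson's r of log2 CPM. Cyp2a22 was most like Cyp4a10 (r = 0.98), a fatty acid omega-hydroxylase. Cyp1a2 was most like Cyp2g1 (r = 0.95) and least like Cyp2d26 (r = -0.97). Cyp2a12 was most like Cyp2c69 (r = 0.95) and Cyp2a5 most like Cyp3a13 (r = 0.88). Cyp2e1 and Cyp2d10 were each other's closest (r = 0.89). Cyp2d26 was closest to Cyp17a1 (r = 0.89), Cyp2f2 to Cyp4v3 (r = 0.84), Cyp2d9 to Cyp2s1 (r = 0.83) and Cyp2d22 to Cyp27a1 (r = 0.79). The points share the diets and the library scaling, and each value is the highest or lowest of 62.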

How the data were processed

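RNA of 6 mouse livers was sequenced as rRNA-depleted, stranded total RNA, per the labels. The authors deposited expected counts per gene, not normalized (judged from the values, which are partly not whole and sum to different totals). Per the submitters' processing notes, STAR 2.7.3a, Partek 9 and mm10 were used. How reads were assigned to genes and whether by strand is not stated in the labels. Of the values 22.4% were not whole (tolerance 0.01). The table gives ends 1 base past those of GENCODE M21, and GENCODE's are printed.

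Expected counts were rounded and filtered with filterByExpr (minimum count 10). HFHC and Chow were compared with edgeR 4.0.16 (TMM, quasi-likelihood F test, R 4.3.3), with no covariate. SE is the log2 fold change's size over the square root of F. One count stood for 0.0318 to 0.0379 CPM. The labels number the mice as separate samples, and p values measure the spread between them. Library measures had exact two-sided permutation tests over 20 assignments.

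Named genes were the 10 members, up to 3 called genes in the main direction and 1 in the other from each gene list (or the one with the smallest p), the closest P450 by r, and Ahr, Alas1, Por, Cyp1a1 and Cyp2a4. One gene this rule named is not reported here. Cyp2d11, Gm15883 (genes sharing sequence or bases with members), least-like genes and the hepatocyte markers Alb, Cps1 and Apob were added after values were seen. Members and lists were chosen with earlier results of these data known. Alternatives were DESeq2 1.42.0, limma 3.58.1, other factors and filters, GC content and length (spline df 5), clock index, and each library left out. Shared windows are 75-base stretches of a principal transcript found in another gene's. The analysis was tested on simulated data.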

Additional observations from a re-analysis of the deposited data

How the results depend on the processing

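Over 19 alternative settings (18 for Cyp2a22, which a minimum count of 50 removed), 9 of the 10 genes kept the sign of their log2 fold change. Cyp2d22, near 0, was -0.0572 after adjusting for GC content and length, and -0.0113 to 0.042 without 1 library (below 0 without HFHC replicate 2 and, at -0.0075, without Chow replicate 8). The median of the 10 genes was 0.00077 with library totals alone. Cyp1a2 passed in 12 of 19 settings. The number of the 10 genes called lower was 0 with upper-quartile factors (Cyp1a2, adjusted p = 0.0506), with the clock index, at a threshold of 0.01 and with a 1.5-fold minimum. It was 2 with DESeq2 (where 1 was called higher), limma-voom with sample weights and the adjustment for GC content and length, and 0 to 1 over the fits without 1 library (0 higher in all of them). Over all genes, 503 rose and 491 fell in the reported fit, 790 fell with sample weights, 35 rose and 30 fell with the clock index, and 207 to 527 rose and 154 to 553 fell without 1 library. The log2 ratio of the summed counts of all 10 genes was 0.0136 as a share of the library, -0.0159 on TMM-scaled sizes, and -0.0199 to 0.0642 without 1 library. That of the Cyp2a sum was -0.44 to -0.26 and that of the Cyp2d sum 0.03 to 0.11 without 1 library. With counts rounded down, an alternative chosen after seeing the data, 505 genes rose and 490 fell, and no call among the 10 genes changed. No paired analysis was possible because the labels give no pairing and no litter for each mouse. The part of litter in the values was not tested.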
